A study of Mus musculus with 115 samples.

Results

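Calb1, Calb2, Pvalb, Necab1 and Hpca encode neuronal proteins that bind calcium, and they were taken by name as 5 of the 22870 gene rows of the count table of quality-controlled cells. All 5 were described in 95 single dentate gyrus granule cells, whose cytosol was drawn into a patch pipette and sequenced. Every mouse was Rbp4-Cre transgenic, had retroAAV-EGFP in the right ventral hippocampus, and had either saline or kainic acid (KA) injected on the left together with AAV.cDIO-mCherry. EGFP therefore marks cells with a projection to the opposite hippocampus, the Cre line drives only the mCherry that shows the injection site, and cells were taken on the left 2 weeks later whether or not they held mCherry. The 4 groups used here are 27 saline EGFP- cells, 5 saline EGFP+ cells, 36 KA EGFP- cells and 27 KA EGFP+ cells. The design text gives 57, 5, 36 and 27 quality-controlled cells for these groups, from 3, 3, 3 and 9 mice; of the saline EGFP- group, the cells beyond the 27 were not analysed here. No label ties a cell to its mouse, and the age of the mice was not given in the sources used here, so each group counts as 1 sample of cells, no difference between groups was tested, and errors are SDs over cells.

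The members fall into buffers and sensors. Calbindin (Calb1), calretinin (Calb2) and parvalbumin (Pvalb) are EF-hand proteins that take up calcium as it enters and shorten its rise. Calbindin is abundant in mature granule cells, calretinin marks immature granule cells, mossy cells and some interneurons, and parvalbumin marks fast-spiking interneurons. Hippocalcin (Hpca) is a sensor: calcium exposes its myristoyl group, and the protein then moves to the membrane, where it takes part in the slow afterhyperpolarization and in synaptic depression. Necab1 is an EF-hand protein of the NECAB family with a monooxygenase-like domain. Loss of calbindin from granule cells has been described in epileptic hippocampus, and KA is used to induce seizures and that state in rodents.

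Total counts per cell ran from 1277978 to 56183007 with a median of 5221619, and 1469 to 9945 genes had a count, with a median of 5370. Titles form a first series from M1 to M48, all from KA mice, and a second series from M201 to M272, in which stretches of saline and KA titles alternate; what the numbers stand for is not given. All saline cells are of the second series. Prox1, a granule cell transcription factor, reached 10 CPM (counts per 1000000 counts of the cell) in 63 of 95 cells and C1ql2, a mossy fiber synapse protein, in 48. The glutamate decarboxylase gene Gad1 reached 10 CPM in 80 cells, while the vesicular GABA transporter Slc32a1 did so in 0 and had a highest value of 4.27 CPM. The 15 microglial genes took a median of 2.73% of counts in the saline EGFP+ cells, against 0.0268%, 0.0133% and 0.0183% in the saline EGFP-, KA EGFP- and KA EGFP+ groups.

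In GRCm38, Calb1 lies on chromosome 4 (15881264 to 15908064, plus strand), Necab1 on chromosome 4 (14952245 to 15149794, minus strand) and Hpca on chromosome 4 (129111570 to 129122036, minus strand). Calb2 is on chromosome 8 (110137502 to 110168210, minus strand) and Pvalb on chromosome 15 (78191114 to 78206400, minus strand). Hpca shares 57 bases of non-coding exon, 1.95% of its exons, with its convergent neighbour Tmem54, and Necab1 shares 410 exon bases, 7.83%, with the antisense gene Gm11837, which has no row in the table. The RefSeq promoter windows matched 2 of the 5 members, Hpca and Pvalb. The Hpca sequence is shown because Hpca was the member with the largest difference between the treatments in EGFP- cells; it is 1 of 3 windows listed for Hpca, and motif matches are given for this 1 alone. It holds the 250 bases before a start 12 bases from that of the transcript Hpca-201, at chr4:129121304-129121553 on the minus strand of GRCm38.p6, with the GGGCGG boxes in capitals.
Hpca: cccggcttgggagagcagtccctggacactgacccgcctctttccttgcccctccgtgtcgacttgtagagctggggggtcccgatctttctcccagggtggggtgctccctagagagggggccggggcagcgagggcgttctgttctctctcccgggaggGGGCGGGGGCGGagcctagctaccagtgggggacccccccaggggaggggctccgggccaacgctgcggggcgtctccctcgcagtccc
Its GC content was 71.2%. Searched on both strands, GGGCGG (the Sp1 box) matched 2 times, and 32.7% of the 32851 mouse windows of this length hold it. There was no match to TGACGTCA (held by 1.55% of windows) or to TGACG (17.8%), which lies within it, both read by CREB. CACGTG (6.02%), GCGTGGGCG of the Egr factors (0.536%) and TATAAA (12.4%) were also not found in this window.

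Calb1 and Hpca were the members that most cells held, and Calb2, Pvalb and Necab1 were each held by a minority. Scaled by exon length, so that genes can be compared, the pooled level in saline EGFP- cells was 193 CPM per kb for Hpca and 187 for Calb1. On the same scale Calb2 stood at 15.2, Pvalb at 9.75 and Necab1 at 3.70 CPM per kb. In KA EGFP- cells the pooled levels per kb were 148 for Calb1, 61.3 for Hpca, 6.35 for Necab1, 1.13 for Pvalb and 0.017 for Calb2. Calb1 and Hpca were thus near equal in the saline cells, while in the KA cells Calb1 was above Hpca.

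**Figure D1:**
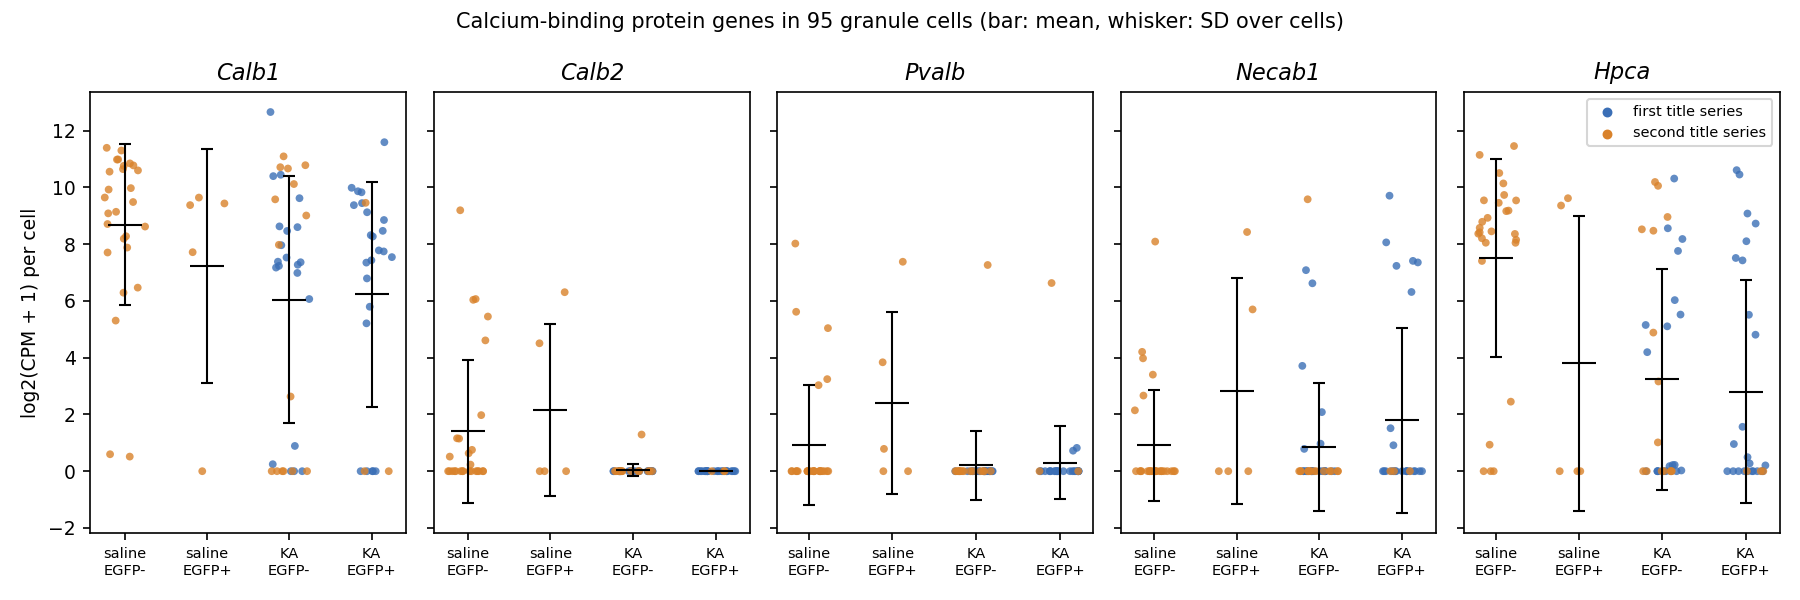
Each point is 1 cell, the y axis is log2(CPM + 1), the x axis gives the 4 groups, the colour gives the title series, and bars and whiskers are the mean and SD over cells. Most saline EGFP- cells lie between 5 and 12 for Calb1, whereas Calb2, Pvalb and Necab1 are at 0 in most cells of every group, apart from Pvalb in saline EGFP+ cells, where 3 of 5 cells hold a count.

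Calb1 was present in nearly all saline EGFP- cells and in fewer KA cells. Its level in the 27 saline EGFP- cells was 0.428 CPM at the lowest, 716 at the median and 2695 at the highest, and 25 of the 27 reached 10 CPM. The 36 KA EGFP- cells ran from 0 through a median of 165 to 6461 CPM, with 24 of 36 at 10 CPM or more, and the 27 KA EGFP+ cells from 0 through 213.5 to 3092 CPM, with 20 of 27. The 5 saline EGFP+ cells held 799, 692, 664, 210 and 0 CPM. All groups overlap: each holds cells near 0, and the highest cell of each lies above the median of the saline EGFP- cells. Means of log2(CPM + 1) were in the order saline EGFP- 8.69 ± 2.85 (SD, n = 27), saline EGFP+ 7.23 ± 4.12 (n = 5), KA EGFP+ 6.23 ± 3.98 (n = 27) and KA EGFP- 6.04 ± 4.35 (n = 36), and no neighbours in this order were farther apart than the smaller of their SDs.

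At equal depth the picture by cell was the same. After each cell was thinned to 1000000 counts, Calb1 had a count in 26 of 27 saline EGFP- cells (96.3%, exact 95% interval 81.0 to 99.9%), 4 of 5 saline EGFP+ cells, 26 of 36 KA EGFP- cells (72.2%, 54.8 to 85.8%) and 20 of 27 KA EGFP+ cells (74.1%, 53.7 to 88.9%). These and all later intervals cover counting error only. Among cells at 10 CPM or more, the median Calb1 level was 800 CPM for the saline EGFP- group, 391 for KA EGFP- and 336 for KA EGFP+. A single KA EGFP- cell, titled M48 and labelled as failed quality control, held 6461 CPM and 48.7% of all Calb1 counts of its group. Without it the group's pooled level was 388 CPM in place of 715.

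Hpca was lower in the KA cells than in the saline EGFP- cells by more than any other member. In saline EGFP- cells it ran from 0 through a median of 349 to 2815 CPM, with 22 of 27 at 10 CPM or more. KA EGFP- cells ran from 0 through a median of 0.164 to 1271 CPM, with 15 of 36 at 10 CPM, and KA EGFP+ cells from 0 through 0.152 to 1561 CPM, with 9 of 27. The groups overlap at both ends, since each holds cells at 0 and its highest cell lies above the median of the saline EGFP- cells. Mean log2(CPM + 1) was 7.52 ± 3.48 (SD, n = 27) in saline EGFP-, 3.80 ± 5.20 (n = 5) in saline EGFP+, 3.24 ± 3.89 (n = 36) in KA EGFP- and 2.81 ± 3.94 (n = 27) in KA EGFP+ cells. Of the neighbours in this order, only the pair of saline groups was farther apart, by 3.72, than the smaller SD of 3.48.

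The share of thinned cells with an Hpca count was 88.9% of the saline EGFP- group (24 of 27, 70.8 to 97.6%), 47.2% of KA EGFP- (17 of 36, 30.4 to 64.5%) and 48.1% of KA EGFP+ (13 of 27, 28.7 to 68.1%). The cell titled M48 also held 38.2% of the Hpca counts of KA EGFP- cells, and the pooled level of the group was 179 CPM with it and 117 without it. In KA EGFP+ cells the cell titled M17 held 39.1% of the counts, and the pooled level was 161 CPM with it and 102 without it.

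For KA minus saline in EGFP- cells, the differences of mean log2(CPM + 1) were -4.28 for Hpca, -2.65 for Calb1, -1.36 for Calb2, -0.72 for Pvalb and -0.05 for Necab1. Among the 5 members, 2 were lower by at least 2, against 1.84% of the 11888 genes counted in at least 10 cells, and 0 were higher by at least 2, against 5.88% of those genes. The median difference over the members was -1.36 and over all of those genes 0.33. Only 7 of the 11888 genes were lower by more than Hpca, and 81 by more than Calb1. The SDs over cells, 3.89 and 3.48 for Hpca, were of about the size of that difference, and for Calb1 they exceeded it. C1ql2, 1 of 7 listed granule cell markers, was lower as well: it reached 10 CPM in 23 of 27 saline EGFP- cells and in 9 of 36 KA EGFP- cells. Prox1 did not follow C1ql2. It reached 10 CPM in 18 of the 27 and 22 of the 36 cells, with medians of 104 and 189 CPM. For the 7 markers summed, the median share was 0.160% in the saline group and 0.038% in the KA group.

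Within the second title series, the differences of Calb1 and Hpca between KA and saline EGFP- cells depended on 1 stretch of titles. In the 8 KA EGFP- cells titled M209 to M216, Calb1 was at 0 in 6 cells and at 5.197 and 251.2 CPM in the others, and Hpca was at 0 in 6 cells, with a highest value of 7.95 CPM. In the other 7 KA EGFP- cells of the second series, titled M237 to M272, Calb1 lay between 515 and 2187 CPM and Hpca at 0, 28.5, 355, 367, 497, 1065 and 1169 CPM. The Calb1 values of these 7 cells all lie above those of the 8 cells, and all within the range of the saline EGFP- cells.

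**Figure D2:**
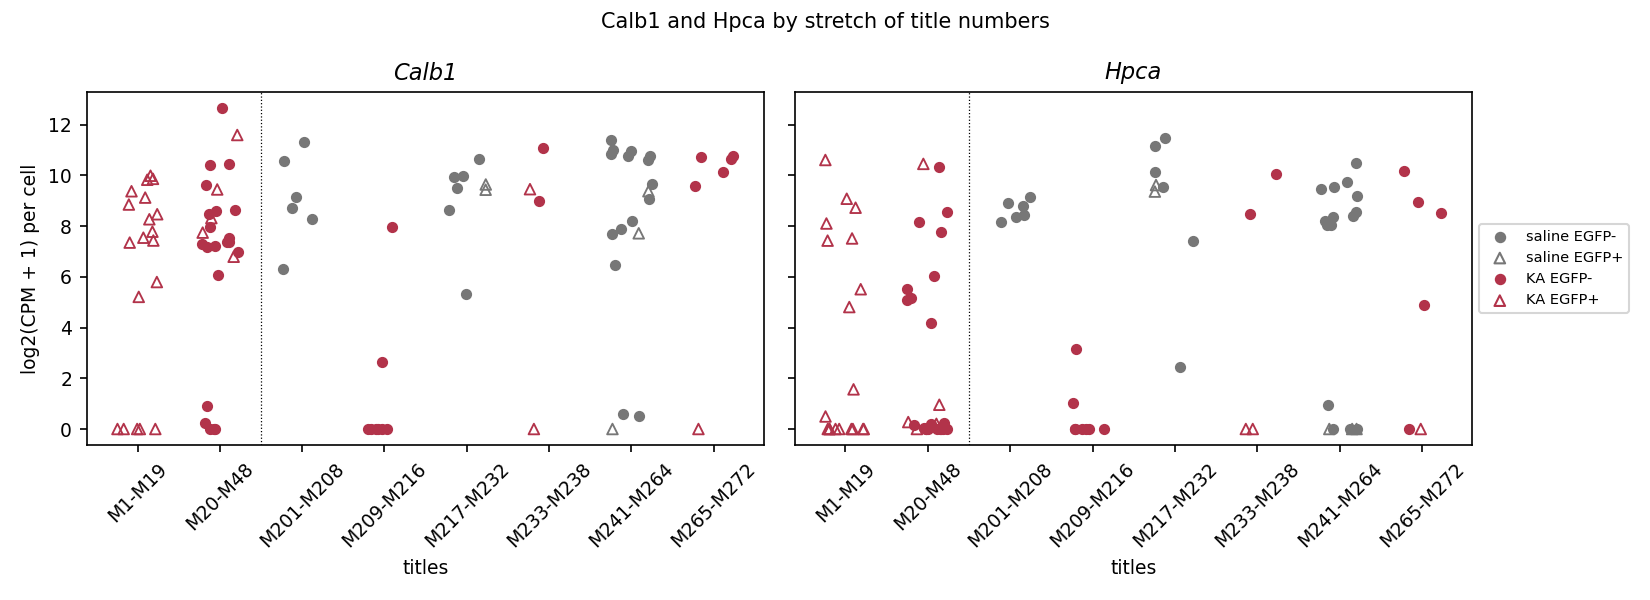
Points are single cells, the x axis gives stretches of title numbers, and the y axis gives log2(CPM + 1) of Calb1 and of Hpca. KA EGFP- cells titled M209 to M216 sit at or near 0 with 1 exception for Calb1, while those titled M237 to M272 sit among the saline EGFP- cells, apart from 1 cell at 0 for Hpca.

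Within the second series the KA minus saline difference in EGFP- cells was -3.19 for Calb1 and -3.84 for Hpca, with 8.92% of all genes lower by at least 2. Without the cells titled M209 to M216 it was 1.59 for Calb1 (10.28 ± 0.75, n = 7, against 8.69 ± 2.85, n = 27) and -0.22 for Hpca (7.30 ± 3.67 against 7.52 ± 3.48), and 8.76% of genes were lower by at least 2. Calb1 then changed sign and Hpca was lower by far less than its SD. When each stretch of KA titles was set beside the saline titles around it, the 8 cells titled M209 to M216 differed from the 12 saline EGFP- cells titled M201 to M232 by -7.69 for Calb1 and -8.15 for Hpca. Only 4 and 2 of the 11888 genes, respectively, were lower by more, while 17.3% of genes were lower by at least 2. The 5 cells titled M265 to M272 differed from the 15 saline EGFP- cells titled M241 to M264 by 1.94 for Calb1 and by -0.089 for Hpca. This division of the titles was chosen after the values were seen.

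The 8 cells titled M209 to M216 also differed from the later KA EGFP- cells in other genes. Their mean log2(CPM + 1) was 8.44 for the synaptic gene Snap25 and 8.96 for the calmodulin gene Calm2, against 10.70 and 11.27 in the KA EGFP- cells titled M266 to M272. Actb was at 6.20 in the former and 7.84 in the latter. Prox1 was at 3.77 and 3.11, the glutamate transporter gene Slc17a7 at 7.10 and 6.29, and Nrgn at 6.50 and 6.14. In the 2 KA EGFP- cells titled M237 and M238, Snap25 was at 10.97, Calm2 at 11.59 and Actb at 10.39. There Prox1 was at 4.34, Slc17a7 at 8.65 and Nrgn at 6.43, so Prox1 and Slc17a7 in the 8 cells lay between the 2 later stretches. The median number of genes with a count was 3634.5 in the 8 cells, 3970 in those titled M266 to M272 and 3483 in those titled M237 and M238. Of the 7 granule cell markers, C1ql2, Stxbp6, Plk5 and Dsp were at 0 in all 8 cells, and the 7 together took a median of 0.0264% of counts (range 0 to 0.157%). In the 7 cells titled M237 to M272 Plk5 and Dsp were at 0 in all cells and the list took a median of 0.0396% (0 to 0.107%). Microglial genes took a median of 0.072% of counts in the former (0.00361 to 5.40%) and of 0.0386% in the latter (0 to 0.709%). The part of these features in the Calb1 and Hpca values was not tested.

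KA EGFP- cells of the first series lay between these extremes. Their mean log2(CPM + 1) was 6.43 ± 3.84 for Calb1 and 2.93 ± 3.63 for Hpca, against 8.69 and 7.52 in saline EGFP- cells. Of the 21 cells, titled M20 to M48, 16 reached 10 CPM of Calb1 and the median among those was 216.3 CPM, below the 800 CPM of the saline EGFP- cells at that level. For Hpca 9 of 21 reached 10 CPM, with a median among those of 64.3 CPM against 464 CPM in saline EGFP- cells. Their median of 6974 genes with a count was higher than that of the saline EGFP- cells, 4448. Their median total of 6024055 counts was also higher than that of the saline EGFP- cells, 4031151. The part of these features in the member values was not tested. No saline cell shares this title series, so treatment and series cannot be told apart for them.

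Between the EGFP classes of KA cells, over all titles, no member differed by 1 or more. EGFP+ minus EGFP- differences were 0.94 for Necab1, 0.19 for Calb1, 0.10 for Pvalb, -0.04 for Calb2 and -0.44 for Hpca; those of Calb1, Pvalb, Necab1 and Hpca were below the SDs over cells of both classes, and Calb2 was at 0 in all EGFP+ cells. None of the 5 members passed a difference of 2 in either direction, against 1.24% of all genes. Titles 20 to 48 are the only stretch of the first series with both classes, 5 EGFP+ and 21 EGFP- cells. There Necab1 was at 4.35 ± 4.02 in EGFP+ and 1.01 ± 2.15 in EGFP- cells, a difference of 3.34, and Calb1 at 8.78 ± 1.84 and 6.43 ± 3.84, a difference of 2.35. In that stretch 4.15% of genes were higher by at least 2, and the ranges of both members overlap between the classes. In the second series, with 3 EGFP+ and 15 EGFP- cells, the differences were -3.68 for Hpca, -2.35 for Calb1 and 1.73 for Pvalb. The first series gave 0.23 for Hpca and 0.19 for Calb1, so both differ in sign between the title series.

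In saline mice the 5 EGFP+ cells differed from the 27 EGFP- cells by -3.72 for Hpca, -1.46 for Calb1, 0.76 for Calb2, 1.48 for Pvalb and 1.92 for Necab1. The Hpca values were 786 and 658 CPM in the cells titled M222 and M230, and 0 in the 3 cells titled M247, M252 and M258. By label, M222 and M230 are marked as failed quality control and the other 3 as passed. Hpca was the 1 member lower by at least 2, against 11.8% of all genes, and none was higher by at least 2, against 3.83%. The 3 cells at 0 are of the stretch M241 to M264, and without that stretch the Hpca difference was 0.82 (2 EGFP+ and 12 EGFP- cells). Microglial genes took 0.4656 to 4.89% of the counts of these 5 cells, and the part of this in the member values was not tested.

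For KA minus saline in EGFP+ cells the differences were -2.16 for Calb2, -2.10 for Pvalb, -1.03 for Necab1, -1.003 for Calb1 and -0.99 for Hpca. Calb2 and Pvalb were lower by at least 2, against 3.54% of all genes, and no member was higher by at least 2, against 26.5%. The median over all genes was 1.01 in this comparison, so the members lay below it. It shares its cells with the comparisons above: the KA EGFP+ cells are those set against KA EGFP- cells, and the saline EGFP+ cells those set against saline EGFP- cells. Calb2 in the 5 saline EGFP+ cells was 0, 0, 0, 21.8 and 78.2 CPM and Pvalb was 0, 0, 166, 0.725 and 13.3 CPM, so both differences rest on 2 or 3 cells. Without the cell titled M258 the Calb2 difference was -1.13, and without M252 it was -1.58. The Pvalb difference was -0.85 without M247 and -1.74 without M258. Of the 27 KA EGFP+ cells 24 are of the first series, which has no saline cell. With the 3 of the second series alone the differences were -4.08 for Calb1, -3.80 for Hpca, -2.83 for Necab1, -2.16 for Calb2 and -0.19 for Pvalb.

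Calb2 was nearly confined to 10 consecutive saline titles among the cells examined. Of all 95 cells, 7 reached 10 CPM, at 21.8, 23.4, 42.7, 64.8, 66.1, 78.2 and 585 CPM, and all 7 are among the 10 cells titled M249 to M258. A further 2 of those 10 held some count, and of the other 85 cells 6 held a count and 0 reached 10 CPM. In thinned cells a Calb2 count was seen in 8 of 27 saline EGFP- cells (29.6%, 13.8 to 50.2%), 2 of 5 saline EGFP+ cells, 1 of 36 KA EGFP- cells (2.78%, 0.0703 to 14.5%) and 0 of 27 KA EGFP+ cells, which allows a share of up to 12.8%. Mean log2(CPM + 1) was in the order 2.16 ± 3.03 in saline EGFP+, 1.40 ± 2.51 in saline EGFP-, 0.04 ± 0.22 in KA EGFP- and 0 in KA EGFP+ cells. The gap of 1.36 between saline EGFP- and KA EGFP- cells exceeded the smaller SD of 0.215 but not the larger SD of 2.51. That smaller SD is low because only 1 of the 36 KA EGFP- cells held a count. The gap between the saline groups exceeded neither of their SDs. The cell titled M255, at 585 CPM, held 63.1% of the Calb2 counts of saline EGFP- cells, whose pooled level was 26.5 CPM with it and 10.1 CPM without it.

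As lists, markers of the cell types for which calretinin is known took no larger median share of counts in the cells with Calb2 than in others. Single markers were found in some of the cells with Calb2. The mossy cell genes Drd2 and Calcrl were at 0 in all 7 cells and reached 10 CPM in 0 and 1 of the 83 cells that reached that level of neither Calb2 nor Pvalb. Glipr1, another mossy cell gene, reached 10 CPM in 3 of the 7 and 28 of the 83. Together the 6 mossy cell genes took a median of 0.0107% of counts, against 0.0121% in those 83 cells. Dcx, a marker of immature neurons, reached 10 CPM in 0 of the 7 and 7 of the 83, Sox11 in 3 and 54, and Neurod1 in 3 and 39. The 8 genes of immature neurons and progenitors took a median of 0.00532% (7.25e-05 to 0.0413%), against 0.0231% in those 83 cells. C1ql2 reached 10 CPM in 6 of the 7 and Calb1 in 6 of the 7. Sst, an interneuron neuropeptide, was at 110, 166 and 19.9 CPM in the cells titled M254, M255 and M256, and only 1 other cell of the 95 reached 10 CPM of it. The interneuron transcription factor Lhx6 was at 31.3 CPM in the cell titled M253, which also held 319 CPM of Gad1 and 38.9 CPM of Gad2, and at 0 in the other 6. The 8 GABAergic genes in the table took a median of 0.0145% of counts in these 7 cells (7.82e-05 to 0.139%) and 0.0768% in the 83. Microglial genes took a median of 0.536% in these 7 cells (0.00560 to 4.89%) and 0.0183% in the 83 (0 to 5.40%). The part of RNA from other cells was not tested.

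Pvalb reached 10 CPM in 7 cells, of which 5 are saline and 2 KA. Values were 31.9, 259.02 and 48.1 CPM in the saline EGFP- cells titled M249, M250 and M251, and 166 and 13.3 CPM in the saline EGFP+ cells titled M247 and M258. The KA EGFP- cell titled M216, labelled as failed quality control, held 153 CPM and the KA EGFP+ cell titled M235 held 98.1 CPM. Thus 4 of the 7 lie in titles M249 to M258, where Calb2 was also found, and 2 cells, titled M249 and M258, held both at 10 CPM. Thinned shares were 18.5% in saline EGFP- (5 of 27, 6.30 to 38.1%), 60% in saline EGFP+ (3 of 5, 14.7 to 94.7%), 2.78% in KA EGFP- (1 of 36) and 7.41% in KA EGFP+ cells (2 of 27). Mean log2(CPM + 1) was 0.92 ± 2.13, 2.40 ± 3.20, 0.20 ± 1.21 and 0.30 ± 1.28 in the same order, with no gap between neighbours above the smaller SD. Without the cell titled M250 the pooled level of saline EGFP- cells was 5.49 CPM in place of 10.2. Without M247 that of saline EGFP+ cells was 1.57 CPM in place of 48.1.

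Genes of fast-spiking interneurons were at low levels in the cells with Pvalb and in the others. The 5 genes of that list took a median of 0.00120% of counts in the 7 cells with Pvalb and 0.00135% in the 83 cells without Calb2 or Pvalb. Lhx6, Erbb4, Tac1 and Slc32a1 reached 10 CPM in 0 of the 7, and in 0, 1, 0 and 0 of the 83. Gad1 reached 10 CPM in 5 of the 7, and in 70 of the 83, and Gad2 in 0 and 19. The KA EGFP- cell titled M216 held Pvalb while Calb1, Hpca, Gad1, Prox1 and C1ql2 were all at 0. The KA EGFP+ cell titled M235 held 1232 CPM of Gad1 and 850 CPM of Prox1, with Calb1 and Hpca at 0.

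Necab1 was on in few cells of every group, with high values in some. Calb1 reached 10 CPM in 73 of 95 cells, among them all 15 cells that reached 10 CPM of Necab1. These were 836, 266.6, 169, 163, 150 and 78.7 CPM in 6 KA EGFP+ cells, 766, 135, 97.5 and 12.1 CPM in 4 KA EGFP- cells, 271.9, 17.4 and 14.8 CPM in 3 saline EGFP- cells, and 344 and 51.0 CPM in 2 saline EGFP+ cells. Mean log2(CPM + 1) was 2.83 ± 3.99 in saline EGFP+, 1.80 ± 3.26 in KA EGFP+, 0.91 ± 1.96 in saline EGFP- and 0.86 ± 2.26 in KA EGFP- cells, and no neighbours in this order differed by more than the smaller SD. Thinned shares lay between 16.7% (6 of 36, KA EGFP-, 6.37 to 32.8%) and 40% (2 of 5, saline EGFP+, 5.27 to 85.3%). The pooled level of KA EGFP- cells was 33.3 CPM with the cell titled M237 and 4.31 CPM without it, and that of saline EGFP- cells 19.4 CPM with the cell titled M243 and 2.45 CPM without it. In KA EGFP+ cells it was 47.7 CPM with the cell titled M13 and 23.8 CPM without it. Necab1 was at 0 in all 12 saline EGFP- cells titled M201 to M232 and in all 8 KA EGFP- cells titled M209 to M216.

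Calb1 and Hpca were often on in the same cells. Both reached 10 CPM in 45 of 95 cells, Calb1 alone in 28, Hpca alone in 3, and neither in 19. In saline EGFP- cells 22 of 27 held both and 3 held Calb1 alone. In KA EGFP- cells 13 of 36 held both, 11 Calb1 alone, 2 Hpca alone and 10 neither, and in KA EGFP+ cells 8 of 27 held both, 12 Calb1 alone, 1 Hpca alone and 6 neither. Of the 5 saline EGFP+ cells 2 held both, 2 Calb1 alone and 1 neither. These shares were not tested. Across all 95 cells Spearman's rho between the log2(CPM + 1) of both genes was 0.56, and 0.41 after subtraction of the mean of each group in each title series.

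The genes most like each member across the 95 cells, among 9658 genes counted in at least 20 cells, were named by Spearman's rho as a description, since the cells share groups, mice and depth. For Calb1 they included Wasf1 at 0.59, Ahcyl2 at 0.57 and Hpca at 0.56. For Hpca they included Tmem54 at 0.95, Ppp3ca, a catalytic subunit of calcineurin, at 0.68 and Rogdi at 0.61. Within groups and series the values were 0.49 for Calb1 with Wasf1, 0.93 for Hpca with Tmem54, and 0.55 for Hpca with Ppp3ca. For Necab1, with counts in 23 cells, Daxx at 0.48 and Celsr1 at 0.45 came first, and its rho was 0.23 with Calb1 and -0.02 with Hpca. Calb2 and Pvalb had counts in too few cells, 15 and 12, to be ranked.

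Tmem54 followed Hpca at a small fraction of its level. All 48 cells with Hpca at 10 CPM or more held a Tmem54 count, whereas of the 47 cells below that level 7 held a count and 0 reached 10 CPM of Tmem54. The ratio of Tmem54 to Hpca counts in the former had a median of 1.96% (0.806 to 64.4%). The genes overlap tail to tail by 57 exon bases, and whether counting used strand is not given, so the counts of Tmem54 and of the end of Hpca cannot be told apart. Adding Tmem54 to Hpca left every difference of Hpca on the same side.

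**Figure D3:**
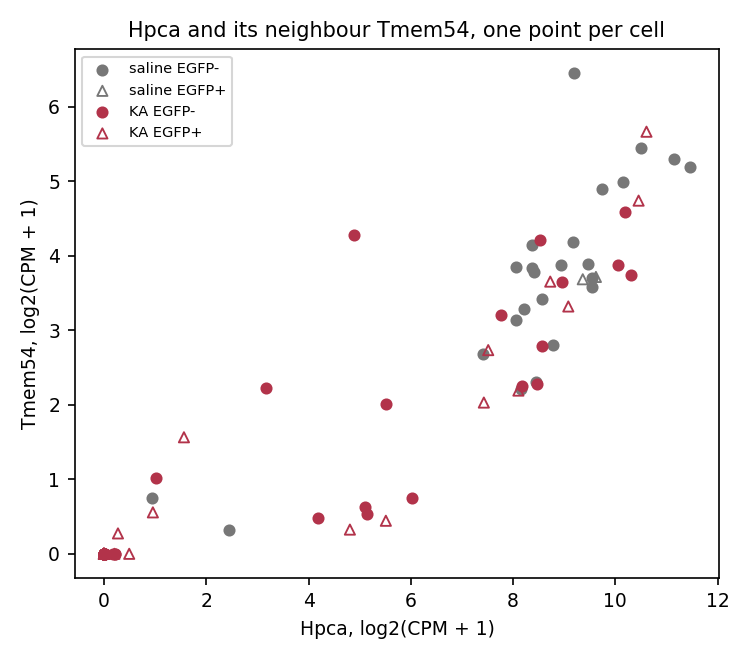
Each point is 1 cell, with log2(CPM + 1) of Hpca on the x axis and of Tmem54 on the y axis, and markers give the 4 groups. Tmem54 is above 0 in all 48 cells with Hpca at 10 CPM or more and below 10 CPM in all 47 others.

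Together with the 5 members, 72 genes of calcium buffering, sensing, extrusion and storage were listed. Of these 72, 59 had counts in at least 10 cells, all 5 members among them. In KA minus saline EGFP- cells, 27 of the 59 were higher and 32 lower, and the median was -0.085 against 0.33 for all genes. By at least 2, 4 were higher and 4 lower, against 5.88% and 1.84% of all genes. Hpca and Calb1, given above, are among the 4 lower by at least 2. The 3 EF-hand buffers counted are the members Calb1, Calb2 and Pvalb, so their median of -1.36 repeats values given above. All 3 calmodulin-binding small proteins were lower (-1.08), while of 9 plasma membrane pumps and exchangers 6 were higher and 3 lower (1.11). Of 9 members of the neuronal calcium sensor family, to which Hpca belongs, 5 were higher and 4 lower (0.55). Within the second series the median was -0.86 for the sensor family and 0.40 for the pumps and exchangers, against -0.36 for all genes. Of the 3 NECAB genes Necab2 and Necab3 were higher, by 1.58 and 2.35, and Necab1 differed by -0.05; within the second series all 3 were lower.

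Among the listed genes with the same sign within the second series, Hpca and Nrgn, at -2.81, were the lowest. Nrgn encodes neurogranin, which holds calmodulin at low calcium, and its difference was -2.46 in the second series and -2.60 there without titles M209 to M216. Rcan1, an inhibitor of calcineurin, had -2.05, -2.93 and -2.81 in the same order, and Ncald, a sensor related to Hpca, -1.97, -4.79 and -2.42. Within the second series these 3 genes therefore kept their sign without the titles M209 to M216. There Calb1 did not, and Hpca did so only with a difference near 0. Genes at the upper end were Cabp1, a calmodulin-like protein that acts on calcium channels, at 2.41, and Kcnip3, a sensor that binds potassium channels, at 2.15. The pump gene Atp2b2 was at 2.06, the exchanger gene Slc24a2 at 1.93 and Micu3 of the mitochondrial uniporter at 1.69, and without titles M209 to M216 these were -0.87, 0.30 and 0.12 in the second series, with Cabp1 at 1.25 and Kcnip3 at 0.97.

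**Figure D4:**
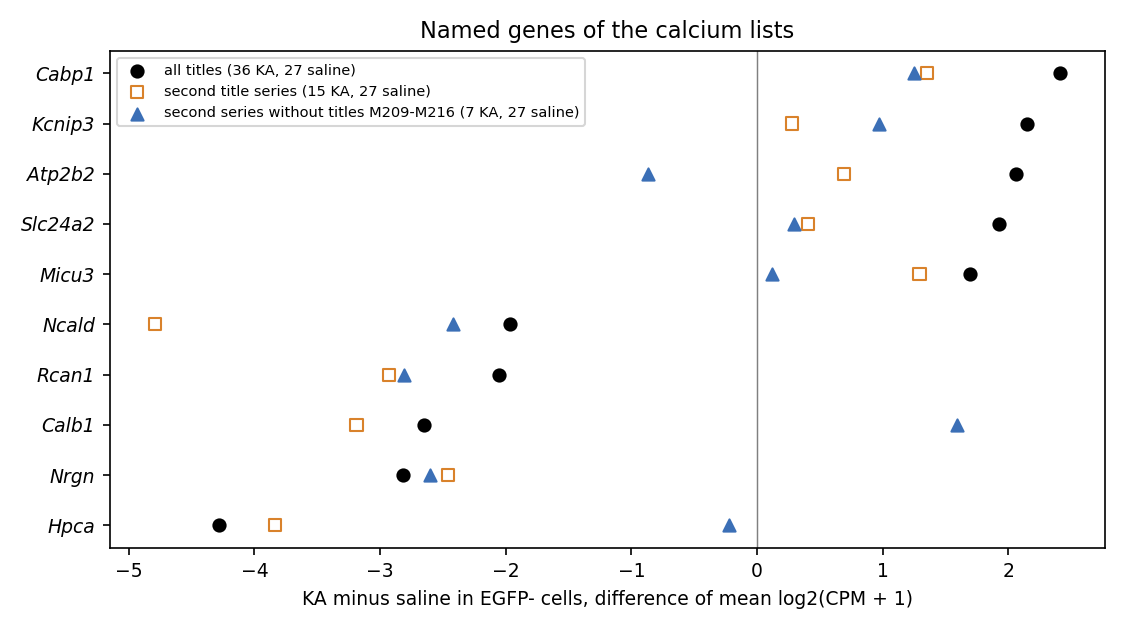
For the 10 named genes of the calcium lists, the x axis is the KA minus saline difference of mean log2(CPM + 1) in EGFP- cells, and markers give all titles, the second title series, and that series without titles M209 to M216. Nrgn, Rcan1 and Ncald stay at or below -1.97 in all 3 sets of titles, whereas Calb1 moves from -2.65 to 1.59 and Hpca from -4.28 to -0.22.

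In EGFP+ minus EGFP- KA cells, 41 of the 59 listed genes were higher and 18 lower, none by 2 in size, against 1.24% of all genes. The median was 0.31 against 0.22 for all genes. Cabp7 (1.73), Caln1 (1.63), Ncs1 (1.52), Letm1 (1.41) and Hpcal4 (1.40) were the highest with the same sign in the second series, where only 3 KA EGFP+ cells enter. In the first series Ncs1 was at -0.02 and Caln1 at -0.29. Calr (-1.11), Micu2 (-0.99), Vsnl1 (-0.95), Micu3 (-0.90) and Pcp4 (-0.88) were the lowest by the same rule, which left out Cabp1 (-1.28, and 0.14 in the second series). The first series gave the same sign for these 5. All of these differences were smaller than the SDs over cells, which ran from 1.42 to 3.98 for the named genes.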

How the data were processed

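Per the labels, cytosol was drawn from single granule cells and libraries were made with Nextera XT. The submitters' processing notes name Trimmomatic, STAR, featureCounts, kallisto and the build GRCm38, with no versions, roles or strand setting given in the sources used here. The authors deposited read counts per gene for 115 cells and for the 95 that passed quality control. They also deposited a normalized table, here called a signal, whose values were the deposited counts times 1 factor per cell (0.118 to 147.5). That normalized table entered only the recomputed differences given at the end. The 2 count tables agreed in all shared cells. By its labels the 95-cell table holds 82 cells marked passed and 13 marked failed, and 12 of the 20 cells left out are marked passed; the table was followed. The 92 spike-in rows were left out of totals. Of 22870 gene rows, 22566 matched GENCODE M21 by symbol, from which positions and exon lengths were taken.

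Counts were divided by each cell's gene total (CPM) and summarised as log2(CPM + 1), a scale on which fold changes of low values are understated. Pooled CPM is summed counts over summed totals. Shares were taken after each cell was thinned to 1000000 counts, with Clopper-Pearson intervals at 95%. A gene entered a comparison with a count in at least 10 of the 95 cells, and all 5 members did. A difference of 2 in mean log2(CPM + 1) was called. No test was run, because no label names a cell's mouse and cells are not replicates. The members, the calcium and marker lists and the title stretches were chosen with earlier results of these data known, and the level of 10 CPM after the values were seen. Named are the members, the 4 genes with the highest Spearman's rho with each member counted in at least 20 cells, and the 5 calcium genes per direction with the largest difference and the same sign in the second title series; some items that this rule names are not reported here. The calculation of differences was tested on simulated data. Python 3.11.15, numpy 2.4.6, pandas 2.3.3, SciPy 1.17.1 and matplotlib 3.10.9 were used.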

Additional observations from a re-analysis of the deposited data

Results flagged for a closer look

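In the 5 saline EGFP+ cells, Calb1 was at 0 on the log2(CPM + 1) scale in the cell titled M258, and its gap to the next cell was 0.8004 of the range of the group, which stands apart from the other 4. The 5 members were examined in these same 5 cells, and 1 showed such a gap. The limit used is passed in about 1 in 20 cases by chance where values are normally distributed. Single-cell values with many at 0 are not, so that rate does not apply here, and the 5 members are not independent. The same cell held 4.89% microglial counts, 78.2 CPM of Calb2 and 13.3 CPM of Pvalb.

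The 20 cells that quality control left out, with a median total of 474183 counts, also held members. More than 3 counts of Hpca were found in 9 of them and of Calb1 in 8, and of Calb2 and Pvalb in 1 each. Necab1 passed 3 counts in 0 of the 20. Summed over these cells, Hpca stood at 920 CPM and Calb1 at 382 CPM. These cells entered no comparison other than a recomputed setting that used all cells without quality control.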

How the results depend on the processing

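Of 478 recomputed differences and counts, 450 stayed within 1 SD over cells of the reported value (counts within 1.5 times). A further 23 moved more and 5 with a size of at least 2 reversed. Of the 470 differences, 399 kept their sign. The SD over cells is a wide limit, so staying within it does not show stability. Calb1 for EGFP+ minus EGFP- in saline cells stayed within it in all 21 settings, yet ran from -2.91 to 0.52. KA minus saline in EGFP- cells: with summed counts Calb2 was -9.81 and Pvalb -3.11; with medians Hpca was -8.23; without cells above 10 CPM of Gad1, Gad2 or Slc32a1 (2 to 5 cells per group remain) Pvalb was 1.82. Some settings were added after seeing the data. In the second series alone without titles M209 to M216 (7 KA cells), Calb1 reversed to 1.59 and Hpca moved to -0.22. Titles M209 to M216 alone gave -7.69 and -8.15, and titles M265 to M272 alone gave 1.94 (reversed) and -0.089. EGFP+ minus EGFP- in KA cells: Pvalb was 1.47 with summed counts and 1.73 in the second series (3 EGFP+ cells), and without the cells with Gad transcripts Calb1 was 5.52, Pvalb -1.82 and Necab1 4.85. EGFP+ minus EGFP- in saline cells: Hpca was -8.45 with medians and reversed to 0.32 without cells with Gad transcripts and to 0.82 without titles M241 to M264. KA minus saline in EGFP+ cells: Calb2 was 0 with medians, without titles M241 to M264 and without titles M249 to M258; Necab1 was 2.95 without cells with Gad transcripts; without titles M241 to M264 Pvalb reversed to 0.30 and Hpca was -6.69. The cause was not tested. Genes called at a difference of 1 in place of 2 numbered 3906 in place of 918, 2026 in place of 147, 5124 in place of 1859 and 7075 in place of 3575 in the same order of comparisons. Leaving out each saline EGFP+ cell in turn gave -5.18 to -2.77 for Hpca and -2.06 to 0.35 for Calb1 against saline EGFP- cells, and -2.70 to -1.13 for Calb2 and -2.70 to -0.85 for Pvalb against KA EGFP+ cells. No paired analysis was possible because no label ties a cell to a mouse and no test was run.

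The 5 saline EGFP+ cells, the absence of saline cells from the first title series and the 8 KA EGFP- cells titled M209 to M216 limit every comparison. Restriction to cells whose neighbours in title order share their group left no saline EGFP+ cell and was not run for that group. With all counts in place of thinned ones, the share of cells with a count went from 96.3% to 100% for Calb1 in saline EGFP- cells and from 47.2% to 58.3% for Hpca in KA EGFP- cells. For Calb2 in KA EGFP+ cells 0 of 27 cells allows a share of up to 12.8%.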
